A study of Mus musculus with 22 samples.

Results

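RNA-seq of T-bet+ cDC2s and cDC1s sorted from the mesenteric lymph node (MLN) of mice was compared across all genes, with 2 libraries of T-bet+ cDC2s against 3 libraries of cDC1s. These 5 samples were taken by their labels from the 22 samples of the series. The remaining samples are MLN T-bet- cDC2s (2 libraries), the same subsets from spleen and spleen ATAC-seq. Every animal carried the Tbx21RFP-cre knock-in, in which the gene for T-bet drives a red fluorescent protein (RFP), and mice of both sexes aged 6 to 10 weeks were used. The study's methods state that the knock-in was homozygous, that cells of 2 mice were pooled for a library and that MLN libraries are biological replicates. They give 2 replicates for MLN, whereas the labels list 3 cDC1 libraries, and all 3 were used. Cells were gated as CD11c+ MHCII+ and negative for lymphocyte markers, CD64 and Ly6C, and then split by XCR1, CD11b and RFP. The labels do not say which animals went into which library, and p-values measure the spread between these libraries.

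Conventional dendritic cells capture antigen and present it to T cells, and they fall into 2 lineages. cDC1s depend on the transcription factors IRF8 and BATF3, bear the chemokine receptor XCR1, and are known for taking up dead cells and presenting their antigens to CD8+ T cells. cDC2s bear SIRPα and CD11b, depend in large part on IRF4 and ZEB2, and are known for priming CD4+ T cells. T-bet, encoded by Tbx21, is a T-box transcription factor best known from type 1 lymphocytes. A lymph node holds resident DCs and also DCs that arrive from the tissue through lymph after a maturation step that induces CCR7.

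Each library held 22733964 to 29006549 reads assigned to genes, and mitochondrial genes took 0.441% to 0.747% of them. Counting error is small at this depth, and the number of libraries sets the precision. Replicates differed by far more than sampling noise, since the chi-square per degree of freedom between 2 libraries of a group was 31.4 to 258. Spearman correlation of log2 levels over the tested genes was 0.954 between the T-bet+ cDC2 libraries and 0.955 to 0.981 between cDC1 libraries. Across groups it was 0.881 to 0.926. In both groups replicate 1 stood apart through low levels of genes of mature migratory DCs, described further down. The correlation of transcript GC content with a library's deviation from the mean of all MLN libraries was -0.123 and -0.414 in the T-bet+ cDC2 libraries and 0.019, 0.135 and 0.07 in the cDC1 libraries, over 7701 genes, so it moved with the group.

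The 3 defining markers went with the labels. Normalized counts, which are counts scaled by TMM to a common library size, were 187.5 and 77.4 for Tbx21 in T-bet+ cDC2s and 6.56, 9.88 and 9.09 in cDC1s. Sirpa was at 15110 and 5782 in T-bet+ cDC2s and at 53.6, 201.9 and 39.1 in cDC1s. Xcr1 was at 135.5 and 898 in T-bet+ cDC2s and at 32870, 11260 and 14510 in cDC1s. The groups did not overlap for any of the 3. Because the sort used RFP, XCR1 and CD11b, the levels of Tbx21 and Xcr1 check the gate and are not results. SIRPα was not sorted on, and Sirpa is read here as a known marker of cDC2s and not as a result. Xcr1 was higher in replicate 2 of T-bet+ cDC2s than in replicate 1, an order shared by 24 of 25 genes of the cDC1 programme.

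Of 15298 genes tested, 952 differed between T-bet+ cDC2s and cDC1s at an adjusted p under 0.05 (edgeR quasi-likelihood test with Benjamini-Hochberg adjustment), which is 6.22% of the genes. Levels were higher in T-bet+ cDC2s for 629 genes (4.11%) and lower for 323 (2.11%). The median log2 fold change was 3.26 for the higher genes and -2.50 for the lower genes, and 945 of the 952 changed by more than 1 on the log2 scale. None of the 952 genes had overlapping groups, whereas 40.4% of all tested genes were without overlap. In 100 of the higher genes every cDC1 library held at most 3 counts, and in 17 of the lower genes both T-bet+ cDC2 libraries did. An unadjusted p under 0.05 was found for 3392 genes, and DESeq2 called 1130 higher and 889 lower. Leaving out T-bet+ cDC2 replicate 1 gave 369 calls, cDC1 replicate 3 391, cDC1 replicate 2 522, and either T-bet- cDC2 library, which enter the estimate of the spread, 526 or 540. With the GC correlation of each library as a term, 213 genes were called (165 higher and 48 lower), and 203 of them were among the 952. All 952 genes kept their direction with that term. Of 145 called genes that are list members or among the largest changes, 76 were called with any 1 library left out, 59 with the GC term, and all 145 kept 1 direction. Where a lost call is given for a gene, the library named is the one whose omission gave the highest adjusted p, and leaving out others could end the call as well. Losses with the GC term are mostly not given by gene. Zeb2, Naaa, Clec12a, Tlr1, Il1rn, Dhrs3 and Itga8 kept their calls with any 1 library left out but not with that term (adjusted p of 0.0694, 0.0914, 0.0837, 0.12, 0.161, 0.152 and 0.0712 in edgeR). The same held for other genes, among them Prdm1, Clec4n, C5ar2, H2-Eb2, Fcer2a and RP24-456G16.4 (0.23, 0.0853, 0.0715, 0.0701, 0.0675 and 0.0627 in edgeR). It also held for Clec4b1, Rarg, Ccrl2, Ccl3, Kcnk5 and Gp2 (0.0588, 0.057, 0.0563, 0.0557, 0.0557 and 0.052 in edgeR).

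**Figure D1:**
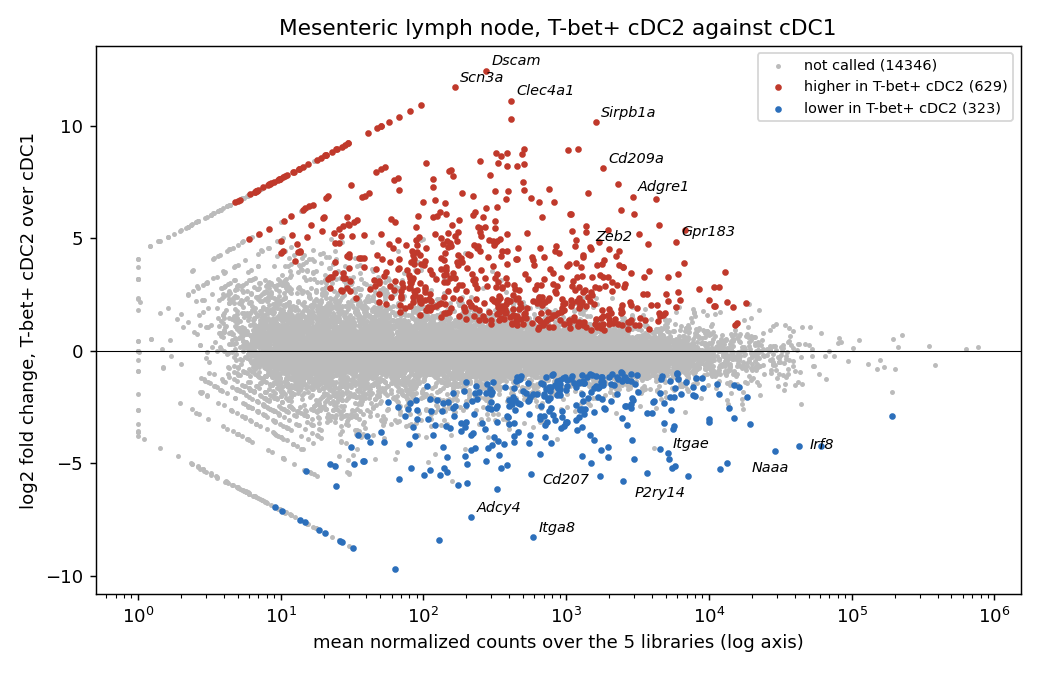
Each point is a gene, with its mean normalized counts over the 5 MLN libraries on a log axis and its log2 fold change of T-bet+ cDC2s over cDC1s on the other. The 629 genes called higher (red) reach a log2 fold change of 12.43 and the 323 called lower (blue) reach -9.72, and the straight rows at the left are genes with no counts in one group.

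The genes with the largest increases were absent or nearly absent from cDC1s. Dscam, a cell adhesion molecule of the immunoglobulin family known from neurons, was at 888 and 495 normalized counts in T-bet+ cDC2s and at 0 in all 3 cDC1 libraries. Scn3a, a voltage-gated sodium channel subunit, was at 507 and 324 against 0 in all 3. Clec4a1, a C-type lectin of the DCIR family, was at 1508 and 552 against 0, 1.10 and 0. Against a floor of 3 counts per library these are at least 223-fold, at least 133.9-fold and at least 332-fold higher, with adjusted p of 0.00118, 0.00122 and 0.000629 in edgeR. Siglece, an inhibitory receptor for sialic acid, was at least 329-fold higher, Kcnk5, a two-pore potassium channel, at least 77.4-fold, Cd300lg at least 65.5-fold, the unnamed transcript RP24-456G16.4 at least 54.2-fold, the noncoding RNA Mir99ahg at least 46.5-fold and the adhesion molecule Cadm3 at least 40.8-fold. Sirpb1a, a signalling relative of SIRPα, was at 5398 and 2662 in T-bet+ cDC2s and at 5.47, 3.29 and 1.82 in cDC1s, higher by 10.14 ± 0.51 on the log2 scale (SE; adjusted p = 0.000252). Sirpb1a and Clec4a1 have near-identical relatives, and only unique reads were kept, so reads that fit several of them equally were not counted. The T-bet- cDC2 libraries of the MLN also held these transcripts, with Dscam at 231.5 and 332.5, Scn3a at 66.9 and 73.1 and Sirpb1a at 2507 and 2511. Cadm3 lost its call without T-bet+ cDC2 replicate 1 (adjusted p = 0.0532), and the others of this group kept theirs with any 1 library left out.

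Among the genes with the largest decreases, Itga8, the integrin α8 chain, was at 0 and 6.11 normalized counts in T-bet+ cDC2s and at 1341, 588 and 994 in cDC1s, a log2 fold change of -8.28 ± 1.03 (adjusted p = 0.00461). Adcy4, an adenylyl cyclase that makes cyclic AMP, was at 0 and 4.07 against 465, 262 and 356.5 (-7.40 ± 0.85, adjusted p = 0.00355). P2ry14, a receptor for UDP-sugars, was at 29.5 and 120.2 against 7840, 1790 and 2839 (-5.80 ± 0.98, adjusted p = 0.0143). Cd207, which encodes the lectin langerin, was at 8.84 and 110.0 against 5672, 1263 and 1620 (-5.59 ± 1.16, adjusted p = 0.031). In each of these 4 genes replicate 2 of T-bet+ cDC2s was the higher of its pair and still lay far below the lowest cDC1 library. The Wnt receptor Fzd1 (-5.88 ± 1.04), the scavenging receptor Igf2r (-5.95 ± 1.15), Lrrc3 (-6.13 ± 1.14) and the desaturase Scd4 (-5.72 ± 1.31) were also among the 10. The remaining 2 were transcripts without a gene name, RP23-202C2.2 and RP23-250E1.9, which were at least 35.0-fold and at least 71.4-fold lower. In this group 7 calls were lost when 1 library was left out, that of Scd4 with each of the 7 MLN libraries and that of Cd207 with all but 3. The highest adjusted p was 0.0844 for Cd207, 0.0712 for RP23-202C2.2, 0.07 for Igf2r and 0.0684 for P2ry14 without T-bet+ cDC2 replicate 1, 0.0612 for Lrrc3 and 0.0547 for Fzd1 without cDC1 replicate 3, and 0.101 for Scd4 without T-bet+ cDC2 replicate 2.

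Chromatin accessibility was measured in spleen, not in MLN, with 2 ATAC-seq libraries for each subset, and it was set beside the MLN calls as a readout that they did not use. Reads had been counted by the authors in windows of 150 bases at accessibility summits. Each window was given to the closest tested gene within 50000 bases. Of 166547 windows tested, 38316 (23.0%) differed between spleen T-bet+ cDC2s and cDC1s at an adjusted p under 0.01 and a log2 fold over 0.5, with 18359 (11.0%) more open in T-bet+ cDC2s and 19957 (12.0%) more open in cDC1s. With library size as the only scaling these were 13058 and 23624. Windows of genes called higher in MLN T-bet+ cDC2s numbered 8064, of which 21.5% were more open in spleen T-bet+ cDC2s and 7.25% in cDC1s. For genes called lower the order turned, with 7.92% and 22.5% of 4316 windows. Over all assigned windows the shares were 12.3% and 11.7%. Counted by gene, 394 of the 497 higher genes with a window had at least 1 window more open in T-bet+ cDC2s (79.3%, against 51.5% of all genes with a window), and 227 of the 291 lower genes had at least 1 more open in cDC1s (78.0%, against 48.3%). Called genes also had more windows, with a median of 13 for the higher, 11 for the lower and 8 over all. Under library size scaling the shares were 16.9% and 8.78% for the higher genes and 5.33% and 25.8% for the lower genes, against 8.65% and 14% over all.

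For the genes with the largest changes, the window with the smallest p is shown where it passed that threshold and read as sequence of the mm10 plus strand, to give the letters behind the accessibility values. Capitals mark matches on either strand to T-box (AGGTGT), Runx (TGTGGT), PU.1 (GGAAGT), IRF (GAAANNGAA), AP-1 (TGANTCA) and C/EBP (TTGCNNAA) letters, and a match is a description of the letters only. Dscam is at chr16:96590840-97170752, Scn3a at chr2:65457118-65567627, Itga8 at chr2:12106632-12301922 and Lrrc3 at chr10:77897575-77902536, all on the minus strand, and Clec4a1 at chr6:122921848-122934619 on the plus strand. The Dscam window, chr16:97204188-97204337, lies upstream of the gene, 33510 bases from its nearest transcript start. The Scn3a window, chr2:65551860-65552009, is intronic and lies 15558 bases from the nearest start. The Clec4a1 window, chr6:122928803-122928952, and the Itga8 window, chr2:12170355-12170504, are also intronic, at 7029 and 22883 bases. The Lrrc3 window, chr10:77876874-77877023, lies outside the gene, at 25588 bases.
Dscam: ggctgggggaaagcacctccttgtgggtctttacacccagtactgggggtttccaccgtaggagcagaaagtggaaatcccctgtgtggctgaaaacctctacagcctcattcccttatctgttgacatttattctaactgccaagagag
Scn3a: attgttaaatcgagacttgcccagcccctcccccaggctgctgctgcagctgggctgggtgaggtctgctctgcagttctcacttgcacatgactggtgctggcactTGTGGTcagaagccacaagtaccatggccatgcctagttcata
Clec4a1: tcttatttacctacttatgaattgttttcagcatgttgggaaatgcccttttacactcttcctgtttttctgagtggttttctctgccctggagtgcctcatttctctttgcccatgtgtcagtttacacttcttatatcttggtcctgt
Itga8: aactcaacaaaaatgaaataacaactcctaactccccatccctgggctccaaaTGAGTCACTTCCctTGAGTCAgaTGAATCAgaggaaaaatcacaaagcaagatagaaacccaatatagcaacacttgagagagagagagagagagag
Lrrc3: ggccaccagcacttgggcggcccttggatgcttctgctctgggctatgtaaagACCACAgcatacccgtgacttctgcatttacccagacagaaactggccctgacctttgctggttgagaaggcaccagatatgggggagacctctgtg

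Normalized ATAC counts in the Dscam window were 381 and 396 in spleen T-bet+ cDC2s and 28.2 and 31.0 in cDC1s, a log2 fold change of 3.71 ± 0.23 (SE). In the Scn3a window they were 128.3 and 146.4 against 12.6 and 11.5 (3.50 ± 0.32). In the Itga8 window they were 2.87 and 3.68 against 38.7 and 25.3 (-3.24 ± 0.57), and in the Lrrc3 window 5.75 and 6.44 against 34.5 and 52.9 (-2.81 ± 0.48). The windows were chosen by p, so the distance between their groups is a description. The direction in spleen chromatin was that of MLN RNA in each, and 20 of the 68 windows of Dscam were more open in T-bet+ cDC2s against 4 more open in cDC1s. The 11 windows of Itga8 more open in cDC1s stood against 2 more open in T-bet+ cDC2s. For Clec4a1 the strongest of 2 windows was at 20.11 and 25.8 against 5.23 and 9.20 (1.67 ± 0.50), and for Adcy4 the strongest of 10 windows did not pass (-1.62 ± 0.57, adjusted p = 0.0215). In the Itga8 window 3 AP-1 matches (bases 54 to 60, 68 to 74 and 77 to 83 of the window) were found, and the first shares a base with a PU.1 match on the minus strand (60 to 65). The Dscam and Clec4a1 windows hold none of these letters. AP-1 letters were in 8.16% of all tested windows, in 13.3% of 1737 windows that belonged to higher genes and opened further in T-bet+ cDC2s, and in 11.7% of 972 windows that belonged to lower genes and opened further in cDC1s. Runx letters were in 15.0%, 25.1% and 14.3%, PU.1 letters in 23.1%, 32.8% and 31.3%, IRF letters in 5.70%, 5.18% and 9.36%, C/EBP letters in 5.89%, 8.18% and 5.45%, and T-box letters in 8.20%, 7.60% and 7.61%. The shares among all windows more open in either subset, whatever their gene, are not given here. These values therefore do not separate windows of called genes from such windows in general.

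Most members of the cDC1 programme were called lower. This list and the others below were chosen with earlier results of these data known. Their shares called, read beside 6.22% of all genes, are therefore descriptions. Of 25 tested members 18 were lower in T-bet+ cDC2s (17 of 24 without the sorted Xcr1), none was higher, and the median log2 fold change was -4.26 against 0.00 over all genes tested in both tissues. Itgae, the CD103 integrin chain, was at 259 and 446 normalized counts in T-bet+ cDC2s and at 13310, 5242 and 6429 in cDC1s (log2 fold change -4.56 ± 0.54, adjusted p = 0.00371 in edgeR). The lysosomal enzyme Naaa was at 2098 and 2271 against 77310, 29840 and 34720 (-4.44 ± 0.58), and the lysosomal thioesterase Ppt1 at 4054 and 6199 against 158100, 57350 and 78380 (-4.26 ± 0.57). Irf8, the factor on which cDC1s depend, was at 1121 and 6232 against 85800, 52400 and 67640 (-4.22 ± 0.78, adjusted p = 0.0204; 0.0571 without cDC1 replicate 3). Batf3, the other cDC1 factor, was at 2440 and 3263 in T-bet+ cDC2s and at 2465, 2929 and 2463 in cDC1s, so the groups overlapped (0.12 ± 0.29, adjusted p = 0.847). Id2, which antagonises E proteins in both lineages, overlapped as well, at 25330 and 69970 against 46630, 60830 and 60240. Clec9a, the receptor for actin filaments of dead cells, missed the threshold with groups far apart, at 6.87 and 231 against 5018, 2028 and 2763 (-4.78 ± 1.18, adjusted p = 0.0547).

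Replicate 2 of T-bet+ cDC2s held more of the cDC1 transcripts than replicate 1. The summed normalized counts of the list were 62460 and 118700 in T-bet+ cDC2s and 341900 to 636800 in cDC1s. The list had 7 lower members with the GC term and 10 without cDC1 replicate 3. Without replicate 2 of T-bet+ cDC2s it had 20 lower members and a median of -5.19, and without replicate 1 it had 12 and -3.77. With any 1 library left out, 4 of the 18 calls were kept (Itgae, Naaa, Ppt1 and the lysosomal GTPase Rab7b), and 14 were lost in at least 1 case.

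Of 17 tested members of the cDC2 programme 10 were higher in T-bet+ cDC2s (8 of 15 without Sirpa and the sorted Itgam), 7 did not pass, none was lower, and the median log2 fold change was 4.05. With at least 10 counts required in each compared library, 10 members could be tested. Of these 5 were called higher and 0 lower, with a median of 3.2. Cd209a, a DC-SIGN family lectin, was at 6392 and 2633 normalized counts in T-bet+ cDC2s and at 20.8, 8.78 and 19.1 in cDC1s (log2 fold change 8.10 ± 0.56, adjusted p = 0.000621 in edgeR). Clec4a4, the lectin known as DCIR2 that marks resident cDC2s, was at 3467 and 1651 against 10.9, 3.29 and 1.82 (8.91 ± 0.64). Itgam, which encodes the CD11b used in the sort, was at 1439 and 498 against 7.66, 7.68 and 5.46. Cd4 (4.41 ± 0.51), the inhibitory receptor Cd300a (5.18 ± 0.55) and Clec4a2 (7.52 ± 0.83) followed. Ltb, the lymphotoxin chain that organises lymphoid tissue, was at 6235 and 2212 against 212, 226 and 326 (4.05 ± 0.66, adjusted p = 0.0127; 0.0664 without T-bet+ cDC2 replicate 1). The call of Epcam, an epithelial adhesion molecule, was lost with any 1 library left out (adjusted p = 0.0454, and 0.134 without T-bet+ cDC2 replicate 2). Esam, a marker of Notch2-dependent splenic cDC2s, was at 1644 and 3297 in T-bet+ cDC2s and at 1235, 3391 and 2980 in cDC1s, and Notch2 was at 2181 and 1313 against 2693, 1484 and 1588. Both overlapped between groups (adjusted p of 0.976 and 0.895). Irf4 was at 4800 and 3259 against 233, 916 and 1253, apart in every library and just over the threshold (2.33 ± 0.58, adjusted p = 0.056).

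**Figure D2:**
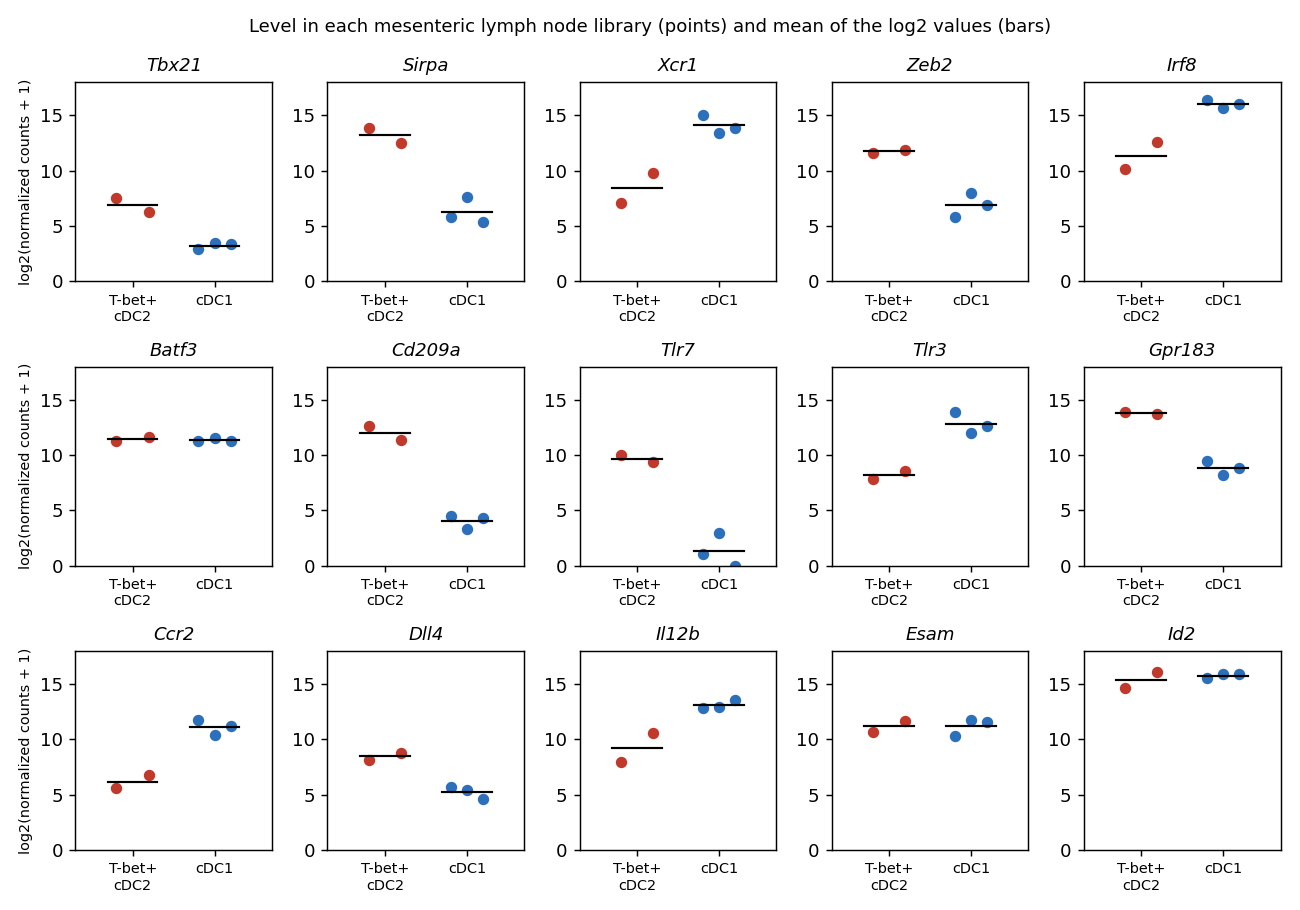
Points are the 5 libraries, T-bet+ cDC2s in red (n = 2) and cDC1s in blue (n = 3), on the scale of log2(normalized counts + 1), and bars are the means of the log2 values. Batf3, Esam and Id2 overlap between groups, while Cd209a, Tlr7 and Gpr183 lie apart by more than any spread within a group.

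Lineage transcription factors were called in both directions, with 7 higher and 3 lower of 36 in DESeq2. In edgeR 3 of 34 tested were higher (Zeb2, Tbx21 and Rora) and 1 was lower (Irf8), which is 11.8%. Without Tbx21, on which the cells were sorted, 3 of 33 were called (9.09%, beside the 6.22% of all genes). Zeb2, a repressor known to direct cDC precursors away from the cDC1 fate, was at 3207 and 3765 normalized counts in T-bet+ cDC2s and at 56.9, 249 and 121.9 in cDC1s (log2 fold change 4.61 ± 0.55, adjusted p = 0.0041 in edgeR). Rora, a nuclear receptor known from innate lymphoid cells, was at 176 and 213 against 27.3, 48.3 and 46.4 (2.25 ± 0.41, adjusted p = 0.0184; 0.0676 without cDC1 replicate 3). Tbx21 without T-bet+ cDC2 replicate 1 was at an adjusted p of 0.077. Mycl, which supports cDC1 function, was at 1148 and 675 against 3926, 1977 and 2601, and Bcl6 at 2174 and 2403 against 3626, 3709 and 4336. Neither passed (adjusted p of 0.0786 and 0.0922), although no library overlapped.

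Notch signalling, which is known to shape splenic cDC2s, showed calls in both directions, with 3 higher and 3 lower of 26 tested (23.1%, beside 6.22% of all genes) and a median log2 fold change of -0.58. Dtx1, a Notch target and regulator, was at 833 and 375 normalized counts in T-bet+ cDC2s and at 4.38, 13.2 and 22.7 in cDC1s (log2 fold change 5.46 ± 0.66, adjusted p = 0.00412 in edgeR). Maml3, a coactivator of the Notch complex, was at 141.4 and 43.8 against 1.09, 1.10 and 0 (6.83 ± 0.89). The ligand Dll4 was at 287 and 433 against 50.3, 41.7 and 22.7 (3.23 ± 0.40, adjusted p = 0.00431, and 0.0912 with the GC term). Lower levels were found for Rbpj, the DNA-binding factor of the pathway (1619 and 1897 against 3128, 3572 and 4133; -1.04 ± 0.24, adjusted p = 0.046), for Numb, an inhibitor of Notch (-1.18 ± 0.26, adjusted p = 0.0386), and for the receptor Notch4 (-2.62 ± 0.62, adjusted p = 0.0491). These 3 lower calls were lost without T-bet+ cDC2 replicate 1 (adjusted p of 0.232, 0.181 and 0.215), while the 3 higher calls were kept.

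Innate sensing genes divided between the subsets. Of 19 Toll-like receptors and adaptors tested, 5 were higher and 2 lower in T-bet+ cDC2s, which is 36.8%. With at least 10 counts required in each compared library, 16 could be tested, with 3 higher and 2 lower. Tlr7, the endosomal sensor of single-stranded RNA, was at 1017 and 642 normalized counts in T-bet+ cDC2s and at 1.09, 6.58 and 0 in cDC1s (log2 fold change 8.34 ± 0.80, adjusted p = 0.00163 in edgeR). Tlr5, the flagellin receptor, was at 449 and 243 against 9.84, 9.88 and 15.5 (4.86 ± 0.46), and Ticam2, the adaptor TRAM, at 2386 and 1520 against 86.4, 108.6 and 77.3 (4.43 ± 0.30). Tlr1 and Tlr2, which form a receptor for bacterial lipoproteins, were higher by 2.81 ± 0.37 and 2.02 ± 0.37, the latter with an adjusted p of 0.117 without T-bet+ cDC2 replicate 1. Tlr3, the sensor of double-stranded RNA, was at 229 and 378 against 15170, 4139 and 6227 (-4.81 ± 0.81, adjusted p = 0.0146; 0.0964 without T-bet+ cDC2 replicate 1). Tlr12, a partner of Tlr11 in sensing profilin, was at 123.7 and 477 against 5797, 3908 and 4281 (-3.96 ± 0.66, adjusted p = 0.0138).

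C-type lectins were also called in both directions, with 9 higher and 3 lower of 29 tested (41.4%) and a median log2 fold change of 1.60. These counts include lectins nearly absent from 1 group. With at least 10 counts required in each compared library, 9 lectins could be tested. Of these 0 were called higher and 2 lower, with a median of -0.47. The higher lectins were Cd209a, Clec4g, Clec5a and 6 of the Dcir and Dectin-2 families (Clec4a1, Clec4a2, Clec4a3, Clec4a4, Clec4b1 and Clec4n), whose genes are close relatives and share sequence. Clec4n, a receptor for fungal mannans, was at 736 and 454 normalized counts in T-bet+ cDC2s and at 5.47, 36.2 and 5.46 in cDC1s (log2 fold change 5.26 ± 0.76). Clec12a, an inhibitory receptor for uric acid crystals, was at 469 and 379 against 6160, 2413 and 3904 (-3.29 ± 0.44, adjusted p = 0.00608 in edgeR), and Clec1a and Cd207 were the other lower lectins. The calls of Clec5a, Clec4g, Clec1a and Cd207 were lost without T-bet+ cDC2 replicate 1 (adjusted p of 0.112, 0.0613, 0.136 and 0.0844). Among Fc and complement genes 3 of 20 were higher and none was lower (15.0%, beside 6.22% of all genes). Fcer1g, the signalling chain shared by activating Fc receptors and lectins, was at 10850 and 6847 against 402, 310 and 274 (4.75 ± 0.32, adjusted p = 0.000602). C5ar2, a receptor for the complement fragment C5a, was at 69.7 and 53.0 against 0 in all 3 cDC1 libraries. Properdin, Cfp, was higher by 2.73 ± 0.61 (adjusted p = 0.039, and 0.196 without T-bet+ cDC2 replicate 1).

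Of 21 receptors for chemokines and other positioning signals, 6 were higher and 3 lower (42.9%). The lower calls include Xcr1, which the sort used, and without it 6 were higher and 2 lower of 20 (40%). Gpr183, the EBI2 receptor that guides cells to the bridging and interfollicular zones, was at 14850 and 13080 normalized counts in T-bet+ cDC2s and at 697, 300 and 462 in cDC1s (log2 fold change 4.85 ± 0.39, adjusted p = 0.000908 in edgeR). Ccr6, the receptor for CCL20, was at 3337 and 2003 against 29.5, 113.0 and 55.5 (5.34 ± 0.54), and Ccr1 at 989 and 540 against 25.1, 8.78 and 18.2 (5.45 ± 0.52). Ccrl2, a receptor that presents chemerin, was at 28740 and 19620 against 3498, 2149 and 4612 (2.82 ± 0.38). Ccr2, which brings myeloid cells out of the blood, was the reverse, at 47.1 and 104.9 against 3527, 1331 and 2421 (-4.995 ± 0.58, adjusted p = 0.00367). Cxcr3 was lower by 3.55 ± 0.71 on the log2 scale (210.1 and 114.1 against 3574, 931 and 1180; adjusted p = 0.0265), and Cxcr4 and Cx3cr1 were higher by 1.34 ± 0.32 and 1.58 ± 0.37. The calls of Cxcr4 and Cx3cr1 were lost without T-bet+ cDC2 replicate 1 (adjusted p of 0.193 and 0.126), and that of Cxcr3 without T-bet+ cDC2 replicate 2 (0.0946).

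Among chemokines 3 of 24 were higher and 3 lower (25.0%, beside 6.22% of all genes). Ccl3, an inflammatory chemokine, was at 2793 and 2337 normalized counts in T-bet+ cDC2s and at 310, 137.2 and 347 in cDC1s (log2 fold change 3.27 ± 0.40, adjusted p = 0.00431 in edgeR). Cxcl9, an interferon-γ induced ligand of CXCR3, was at 350 and 369 against 12120, 4017 and 5997 (-4.36 ± 0.56, adjusted p = 0.00548). Ccl6 (2.35 ± 0.34) and Ccl9 (2.92 ± 0.60) were also higher, and Ccl2 (-3.67 ± 0.74) and Ccl7 (-4.04 ± 0.81) lower. With 1 library left out, the call of Ccl9 was kept in 1 of 7 fits, and those of Ccl2 and Ccl7 in 2 of 7. The highest adjusted p was 0.0861 for Ccl9 without T-bet+ cDC2 replicate 2, 0.087 for Ccl2 without cDC1 replicate 3 and 0.0931 for Ccl7 without T-bet+ cDC2 replicate 1.

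Cytokines and repair factors gave 5 higher and 1 lower of 26 (23.1%, beside 6.22% of all genes). Bmp2, a growth factor of the TGF-β family, was at 417 and 194.5 normalized counts in T-bet+ cDC2s and at 2.19, 5.49 and 6.37 in cDC1s (log2 fold change 5.98 ± 0.67, adjusted p = 0.00318 in edgeR). Il1rn, the IL-1 receptor antagonist, was at 805 and 1511 against 62.3, 150.3 and 173 (3.17 ± 0.45), and Il1r2, the decoy receptor for IL-1, at 2238 and 1080 against 38.3, 12.1 and 30.0 (5.94 ± 0.52, adjusted p = 0.00114). Both encode products that restrain IL-1. Vegfa (4.06 ± 0.75) and Mmp9 (4.93 ± 1.02) were higher as well. Il12b, the p40 chain of IL-12, was at 246 and 1502 against 7347, 7696 and 11660 (-3.35 ± 0.77, adjusted p = 0.0433). The call of Il12b was lost without cDC1 replicate 3 (adjusted p = 0.11), and those of Mmp9 and Vegfa without T-bet+ cDC2 replicate 1 (0.163 and 0.0997). Of 33 growth factor and cytokine receptors, Il1r2 and Csf1r were higher (6.06%, close to the share of all genes) and none was lower. Csf1r, the M-CSF receptor, was at 5143 and 2351 against 179, 418 and 202 (3.81 ± 0.50).

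In the MHC class II list 2 of 20 were higher and none lower (10.0%, beside 6.22% of all genes), H2-Eb2 (log2 fold change 3.38 ± 0.37, adjusted p = 0.00283 in edgeR) and H2-DMb2 (2.85 ± 0.44, adjusted p = 0.01; 0.0534 without cDC1 replicate 3). With the GC term none of the 20 was called. H2-DMb2 is a near-identical neighbour of H2-DMb1, so reads that fit both equally were not counted and other reads of the pair could be confused. H2-Ab1, the main class II β chain, was at 495000 and 266200 normalized counts in T-bet+ cDC2s and at 524700, 196300 and 265500 in cDC1s, and the groups overlapped. In the class I and cross-presentation list 1 of 24 was higher and 1 lower (8.33%). Cybb, the NADPH oxidase subunit that slows phagosome acidification, was at 13930 and 7623 against 141.1, 339 and 198 (5.57 ± 0.47, adjusted p = 0.000995), and Sec61a1, a channel of the endoplasmic reticulum, at 5229 and 4806 against 11520, 11830 and 11560 (-1.21 ± 0.24, adjusted p = 0.0255; 0.102 without T-bet+ cDC2 replicate 1). Tap1, the peptide transporter, was at 12950 and 20020 against 35180, 53300 and 49620 and just missed the threshold (-1.48 ± 0.37, adjusted p = 0.0555). DESeq2 called 9 lower members in this list and edgeR 1.

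Other groups are given by their counts, beside 6.22% called of all genes. The share called was 21.4% for retinoic acid genes, 21.1% for integrins and 14.3% for scavenger and dead-cell uptake genes. It was 5.0% for costimulatory and checkpoint genes and 3.12% for cell cycle genes, below the share of all genes. Interferon-stimulated genes had 7 higher and 1 lower of 28 (28.6%), among them Rtp4 (3760 and 1537 normalized counts against 53.6, 29.6 and 33.6; log2 fold change 6.09 ± 0.50), Ifit3 (4.58 ± 0.37) and Ddx58, the RNA sensor RIG-I (3.31 ± 0.32), while Oasl1, an inhibitor of interferon production, was lower (-2.36 ± 0.41, adjusted p = 0.0162). Oasl1, Oas1a and Oas2 lost their calls without T-bet+ cDC2 replicate 1 (adjusted p of 0.0933, 0.0582 and 0.0743). Retinoic acid genes had 3 higher and none lower of 14, the receptor Rarg (3.65 ± 0.43), the reductase Dhrs3 (2.00 ± 0.28) and the retinol carrier receptor Stra6 (3.05 ± 0.72; adjusted p = 0.0474, and 0.241 without T-bet+ cDC2 replicate 2). With the GC term none of the 14 was called. Aldh1a2, the enzyme by which gut DCs make retinoic acid, was at 1586 and 8167 normalized counts in T-bet+ cDC2s and at 9823, 32330 and 33170 in cDC1s and did not pass (-2.36 ± 0.85, adjusted p = 0.153 in edgeR). It was lowest in replicate 1 of both groups. Integrins had 1 higher (Itgam) and 3 lower of 19 (Itgae, Itga8 and Itga1, the latter with an adjusted p of 0.0521 without T-bet+ cDC2 replicate 1). Scavenger and dead-cell uptake genes had 2 higher (Tgm2 and Lrp1) and 1 lower (Cd36) of 21, with the transglutaminase Tgm2 at 8719 and 3173 against 82.0, 113.0 and 37.3 (6.27 ± 0.59). The calls of Lrp1 and Cd36 were lost, at an adjusted p of 0.297 without T-bet+ cDC2 replicate 1 and 0.0828 without cDC1 replicate 3. Costimulatory and checkpoint genes had none higher and 1 lower of 20, the inhibitory receptor Btla (-2.03 ± 0.41, adjusted p = 0.0267; 0.133 without T-bet+ cDC2 replicate 1). Cell cycle genes had 1 higher of 32, Ccnd1 (2.51 ± 0.52, adjusted p = 0.0312; 0.17 without T-bet+ cDC2 replicate 1), and a median of 0.64 with 29 of 32 above 0. Of the 32 cell cycle genes 2 were higher in replicate 2 of T-bet+ cDC2s than in replicate 1, and the median was 0.25 without replicate 1. Immediate early genes, which rise with handling of cells, had none called of 17 in edgeR, none at an unadjusted p under 0.05 and none in DESeq2. With the number in the library name as a block, 4 of the 17 were called higher and 0 lower, with a median of 0.59.

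**Figure D3:**
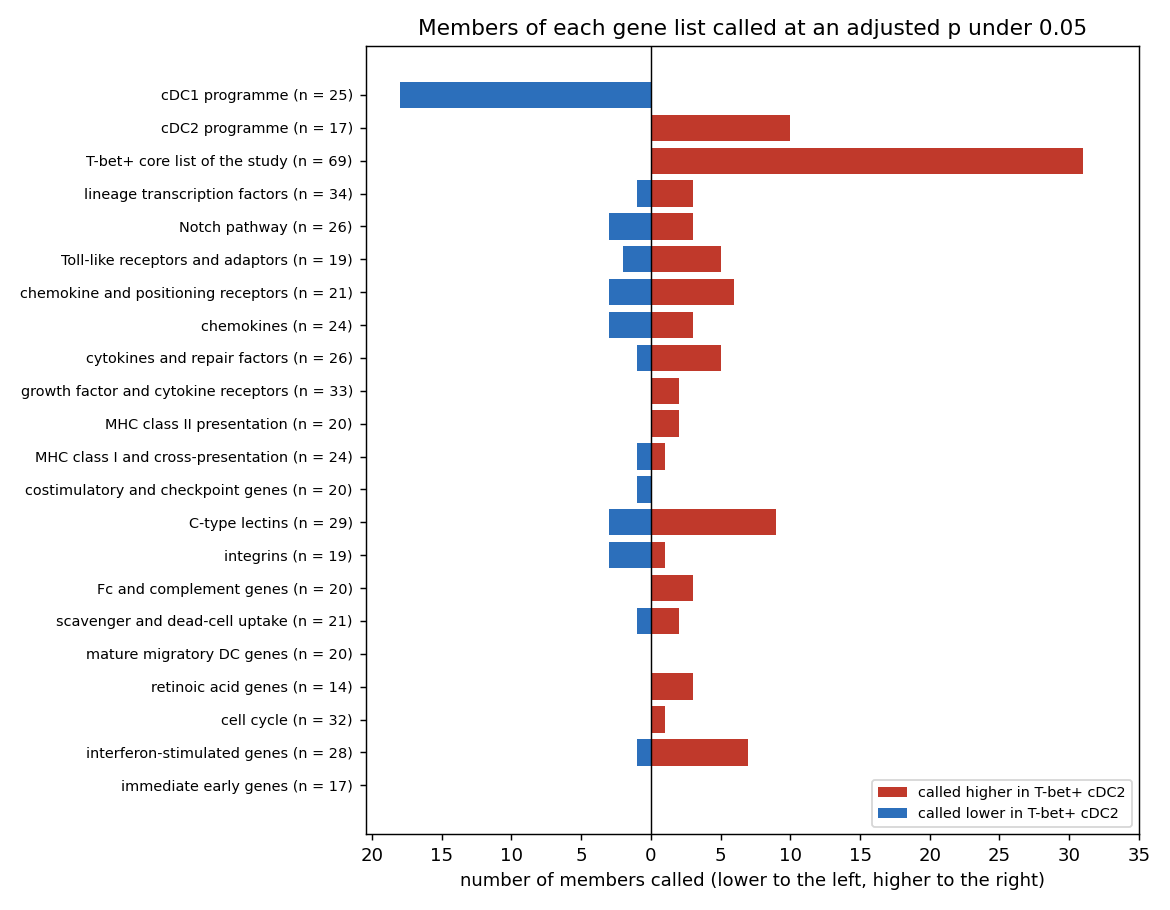
Bars give, for each of 22 gene lists with its number of tested members, how many were called higher (red, right) or lower (blue, left) in MLN T-bet+ cDC2s than in cDC1s at an adjusted p under 0.05. The cDC1 programme has 18 lower and 0 higher, the cDC2 programme 10 higher and 0 lower, and the 69 T-bet+ core genes, a list chosen by the study on libraries used here, 31 higher and 0 lower.

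Genes of mature migratory DCs varied within each subset. Of 20 tested, none passed in edgeR, none had an unadjusted p under 0.05, and DESeq2 called none. With the number in the library name as a block 2 were called higher and 4 lower, and without a filter on low counts 3 lower. All 20 were lower in replicate 1 than in replicate 2 of T-bet+ cDC2s, by a median ratio of 3.38, and 19 of the 20 were lower in replicate 1 of cDC1s than in its other 2 libraries, by a median ratio of 3.05. Over all tested genes these orders held for 50.2% and 39.3%. Ccr7, the receptor by which migrating DCs reach the node, was at 56700 and 203700 normalized counts in T-bet+ cDC2s and at 68890, 233800 and 225000 in cDC1s (log2 fold change -0.43 ± 0.65, adjusted p = 0.743). Fscn1, the actin bundling protein of mature DCs, was at 2495 and 11050 against 5742, 33320 and 34300, and Cd83 at 99180 and 103400 against 76480, 44380 and 82180, the exception to the order in cDC1s. The 2 levels of Ccr7 thus recurred in both subsets. With the mean level of these genes as a term, added after the data were seen, 1098 genes were called higher and 924 lower, including 949 of the 952, and without replicate 1 of both groups 518 and 375. In bulk RNA a smaller share of mature cells and a lower level per cell cannot be told apart.

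**Figure D4:**
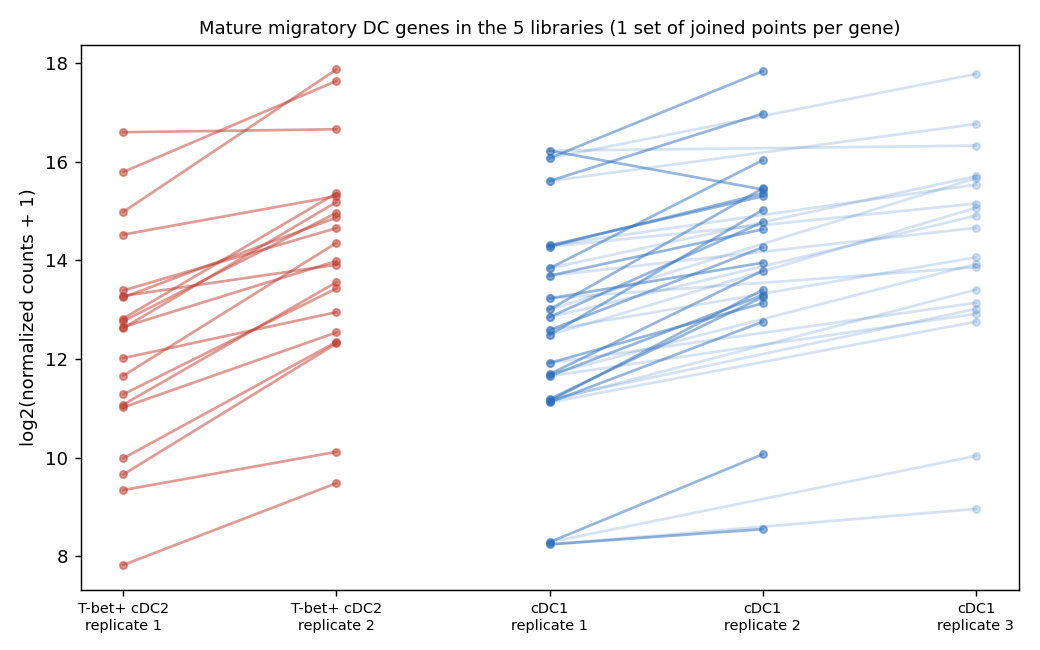
Joined points are the 20 tested genes of mature migratory DCs, on the scale of log2(normalized counts + 1), in the 2 T-bet+ cDC2 libraries (red) and in the 3 cDC1 libraries (blue, replicate 1 joined to each of the others). Replicate 1 is low for nearly every gene in both subsets.

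A list that the study drew from T-bet+ against T-bet- cDC2s had 31 of 69 genes called higher than in cDC1s and none lower (13 higher with the GC term). The median log2 fold change was 1.9, and 67 were above 0. The list was chosen on the T-bet+ cDC2 libraries used here, so it is not independent evidence of its direction. Cd7, an immunoglobulin family receptor of lymphocytes, was at 7961 and 3508 normalized counts in T-bet+ cDC2s and at 30.6, 41.7 and 29.1 in cDC1s (log2 fold change 7.40 ± 0.43, adjusted p = 0.000394 in edgeR). The unnamed transcript AC171680.3 was at 1092 and 656 against 3.28, 2.195 and 0.909, and the interferon-induced membrane protein Ifitm1 at 2067 and 1130 against 18.6, 15.4 and 15.5 (6.59 ± 0.41). The calcium release channel Ryr3 (8.96 ± 0.84), Klrb1f (6.99 ± 0.79) and Dmrtb1, at 0 in all 3 cDC1 libraries and at 153.2 and 82.5 in T-bet+ cDC2s, followed. The 2 members below 0 were Unc119 (738 and 337 against 1000, 357 and 436) and Egr3 (988 and 370 against 1636, 453 and 968). Without T-bet+ cDC2 replicate 1 the list had 17 calls.

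Markers of other cells were counted in the same way, beside 6.22% called of all genes. Monocyte and macrophage genes had 2 higher (Adgre1 and Csf1r) and none lower of 10 (20%), and their summed normalized counts were 21290 and 29200 in T-bet+ cDC2s and 6389 to 12320 in cDC1s. Adgre1, a macrophage adhesion receptor, was at 9448 and 5036 against 72.2, 66.9 and 50.9 (log2 fold change 6.84 ± 0.37, adjusted p = 0.000308 in edgeR). The list had 8 of 10 members above 0, a median log2 fold change of 1.55 and 6 members at an unadjusted p under 0.05. Its median was 2.1 without T-bet+ cDC2 replicate 1 and -0.24 without T-bet+ cDC2 replicate 2. With the GC term the median was -0.33, with 2 members called higher and 1 lower. Ly6c2 and Fcgr1 belong to the markers gated out in the sort, and without them 2 of 8 were higher. B cell genes had 3 higher of 6 (50.0%; Cd79b, Fcer2a and Ebf1), summing to 1699 and 1695 against 578 to 678. Cd79b was at 759 and 515 against 106.1, 186 and 112. Ebf1 lost its call with each of the 7 libraries left out (adjusted p up to 0.157, without T-bet+ cDC2 replicate 2) and Cd79b without T-bet+ cDC2 replicate 1 (0.0501). Plasma cell genes had 1 higher of 5, the factor Prdm1 that DCs also express (summed 5373 and 4355 against 353 to 1714), T cell genes 1 of 6, Cd5 (883 and 494 against 234 to 506), and stroma and endothelium 1 of 6, Pecam1 (2423 and 2144 against 450 to 1349). The calls of Cd5 and Pecam1 were lost without T-bet+ cDC2 replicate 1 (adjusted p of 0.315 and 0.143). No call was made in edgeR for the NK and innate lymphoid (3 tested; 1 at an unadjusted p under 0.05), plasmacytoid DC (6 tested; 2) or neutrophil genes (4 tested; 0), and the 6 erythroid genes were too low to test. DESeq2 called none for NK and neutrophil genes and 1 in each direction for plasmacytoid DC genes. The part of such cells in the results was not tested.

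The same contrast in spleen used separate libraries, 3 of each subset. There 2613 of 14377 genes were called (18.2%), 1434 higher (9.97%) and 1179 lower (8.20%). Of the 605 genes called higher in MLN and tested in spleen, 601 were higher in spleen (99.3%, against 51.0% of all 13770 genes tested in both) and 501 were also called there. Of 314 called lower in MLN, 309 were lower in spleen (98.4%, against 48.9%) and 257 were called. The median log2 fold change of the higher genes was 3.21 in MLN and 3.01 in spleen, and that of the lower genes was -2.46 and -2.65. One gene was called in opposite directions, Tppp3, a tubulin polymerisation protein, with -2.57 ± 0.61 in MLN (adjusted p = 0.0486) and 1.05 ± 0.29 in spleen (adjusted p = 0.0311), and the difference between tissues missed the threshold (adjusted p = 0.0505). It was named after its values were seen. Dll4 was at 3.23 ± 0.40 in MLN and 0.21 in spleen, and the difference itself was not called (adjusted p = 0.496). Esam was near 0 in MLN and at 2.84 in spleen (adjusted p of the difference = 0.0643).

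**Figure D5:**
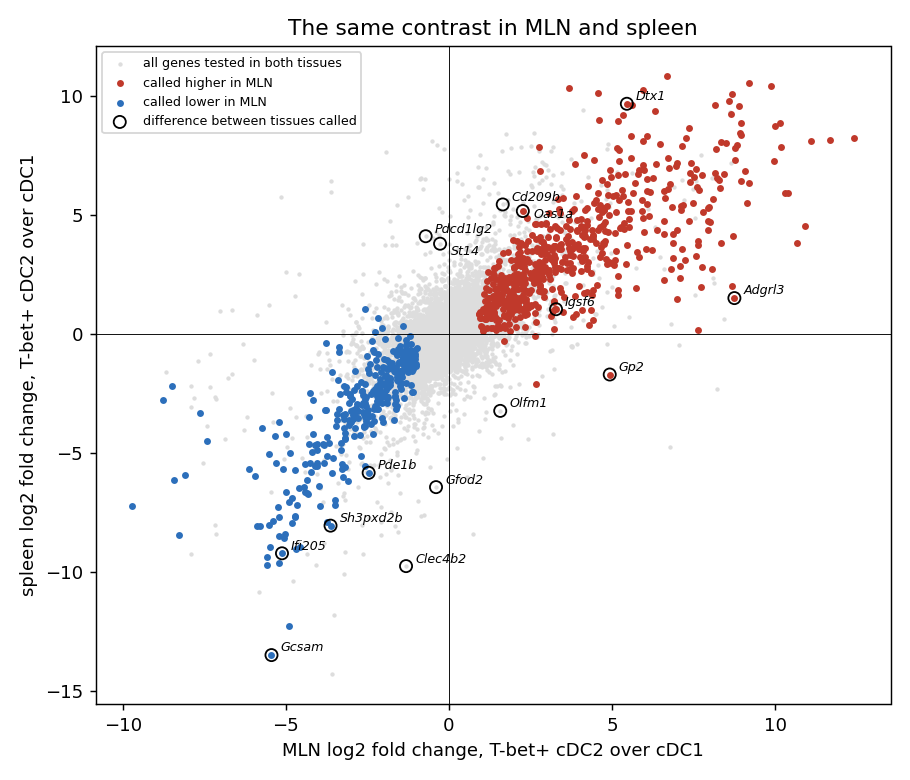
Each point is a gene tested in both tissues, with the log2 fold change of T-bet+ cDC2s over cDC1s in MLN on the x axis and in spleen on the y axis. Genes called in MLN (red and blue) lie in the quadrants of equal sign with 9 exceptions, and circles mark genes whose difference between tissues was called.

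The difference between tissues, tested as an interaction over all 16 RNA libraries, was called for 15 of 16795 genes (0.0893%), 10 with a higher MLN value (0.0595%) and 5 with a lower one (0.0298%). For the adhesion receptor Adgrl3 the contrast was larger in MLN. The cDC1s were at 4.02, 0 and 3.60 normalized counts in MLN and at 446, 597 and 937 in spleen, while T-bet+ cDC2s were at 1496 and 823 in MLN and at 1697 to 2092 in spleen. The difference was 7.21 ± 0.69 on the log2 scale (adjusted p = 0.000782 in edgeR). Gp2, a receptor known from M cells, rose in MLN T-bet+ cDC2s (870 and 426 against 23.1, 7.51 and 33.3) and was lower than cDC1s in every spleen library (263 to 809 against 1542 to 2321). Clec4b2 was far below cDC1s in spleen (0, 0 and 3.08 against 785 to 1180) and less so in MLN (37.2 and 29.6 against 121.5, 41.8 and 88.3). Pdcd1lg2, the checkpoint ligand PD-L2, was at 1235 and 2264 against 1240, 4160 and 3481 in MLN and at 834 to 1032 against 30.6 to 79.0 in spleen. In MLN the groups thus overlapped, and in spleen they lay apart. Oas1a and Dtx1 rose in both tissues and more in spleen. A count this small depended on single libraries, with 2 genes called without cDC1 replicate 3, 7 without cDC1 replicate 2, 59 without T-bet+ cDC2 replicate 1 and 113 without cDC1 replicate 1.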

How the data were processed

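RNA of sorted cells was amplified by a SMARTer method and sequenced as read pairs. Per the study's methods and the labels, the authors used HISAT2 2.1.0 to align reads against mm10, kept unique reads with SAMtools 1.9 and deposited raw counts per gene of GENCODE vM17. Whether the counting used strand is not given in the sources used here. For spleen ATAC-seq the authors deposited raw counts in 150-base windows at summits that MACS2 2.1.1.20160309 called on all replicates together, after alignment with Bowtie2 2.2.5. The deposited summit list also holds 1 value per summit, taken here as a −log10 p and not used, and the tables by whole peak were not used.

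Groups were taken from the labels. One sentence of the study's methods swaps the RFP+ and RFP- names, and the labels were followed. Counts were filtered with filterByExpr, scaled by TMM and tested with edgeR 4.0.16 in R 4.3.3 (quasi-likelihood test, Benjamini-Hochberg adjustment over all genes, adjusted p under 0.05), with subset as the only term. The 7 MLN libraries shared 1 fit with 4 residual degrees of freedom, so the T-bet- cDC2 libraries entered the estimate of the spread. DESeq2 1.42.0 was an alternative, as were other filters, terms and libraries left out. The count test was first tested on simulated data. Floors and counts cover counting error only.

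Genes named were the 3 markers, the 10 largest changes in each direction (called genes whose groups did not overlap and whose mean level reached 50 normalized counts), members of 31 gene lists (per list and direction the 3 smallest p at that level), and up to 5 genes in each direction of the difference between tissues. Other genes were named after their values were seen. The members and lists were chosen with earlier results of these data known. Windows were given to genes by GENCODE M21 positions, which matched 12221 of the 15298 symbols tested, and 1637 windows were equally close to several genes. Figures were drawn with Python 3.11.15 and matplotlib 3.10.9.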

Additional observations from a re-analysis of the deposited data

Results flagged for a closer look

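For 10 genes named by rule, the contrast of T-bet+ cDC2s over cDC1s differed between MLN and spleen by the test of the difference itself (edgeR over all 16 RNA libraries). The log2 difference, MLN minus spleen, was 7.21 for Adgrl3, 8.44 for Clec4b2, 6.60 for Gp2, 4.41 for Sh3pxd2b and 3.35 for Pde1b. It was -4.88 for Pdcd1lg2, -4.28 for Dtx1, -4.12 for St14, -3.82 for Cd209b and -2.92 for Oas1a. Adgrl3 and Gp2 passed in 8 of 8 alternatives, Clec4b2 and Pdcd1lg2 in 7, Cd209b and Oas1a in 6, Sh3pxd2b, Pde1b and Dtx1 in 5 and St14 in 4. Sh3pxd2b, a scaffold of podosomes, had a log2 fold change of -3.63 in MLN and of -8.05 in spleen. Pde1b, a phosphodiesterase, was at -2.46 and -5.83. Cd209b, a lectin of marginal zone macrophages, was at 1.65 in MLN, where it did not pass (adjusted p = 0.094), and at 5.46 in spleen, and St14, a membrane protease, at -0.27 and 3.81.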

How the results depend on the processing

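The 952 genes kept their direction in every alternative in which they were tested. With at least 10 counts required in each compared library, 661 of the 952 could be tested and 655 of them were called, among 718 calls. In MLN 2019 genes were called with DESeq2 (56.0% of them higher, against 66.1%), 2257 without a filter on low counts, 586 with only the 5 compared libraries, 285 at an adjusted p under 0.01, and 369 to 1101 with 1 library left out. Terms added after the data were seen gave 2440 calls (number in the library name as a block) and 2022 (mature gene level), and the planned GC term gave 213. Differences between tissues numbered 234 with DESeq2, 475 without the filter and 2 to 113 with 1 library left out. ATAC windows numbered 23881 with DESeq2 and 25037 to 33708 with 1 library left out. Spleen calls stayed within 1.5 times throughout.

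With the replicate number as a replicate block 539 MLN genes were called. The samples share only a number: deviations from the group means correlated at 0.372 (number 1) and 0.304 (number 2), over 2 pairs. With 2 T-bet+ cDC2 libraries, their deviations mirror each other, so the 2 values are not separate observations of a pairing. T-bet+ cDC2 replicate 2 and cDC1 replicate 3, of unlike number, correlated at 0.149. The T-bet- cDC2 libraries are replicates 1 and 2 by label but carry 2 and 3 in their library names, so the blocks by label and by name group different libraries.

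Among genes that did not pass, the sign of the log2 fold change turned when 1 library was left out. The range was -1.62 to 0.22 for Ccr7, -0.61 to 0.39 for Esam, -0.29 to 0.72 for H2-Ab1, -1.12 to 0.33 for Id2, -0.54 to 0.20 for Notch2, -0.81 to 0.44 for Unc119 and -0.08 to 0.33 for Batf3. With the mature gene term it was 0.00 for Ccr7, 0.34 for Esam and -0.04 for H2-Ab1, with the GC term 0.70 for Notch2 and 0.26 for Unc119, with either replicate block 0.15 for Esam, and without both replicates 1 it was 0.15 for Id2. The cause was not tested. With 2 libraries in a group, the number of libraries and not the depth limits these results.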
